A study of Papio anubis and Macaca mulatta with 6 samples.

Results

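The data follow 10 genes through prepubertal primate testis at single-cell resolution, those that bring cholesterol to the site of steroid synthesis and the enzymes that turn it into androgens. They were taken by symbol from the gene list of each species. STAR, SCARB1, FDX1, HSD17B3 and SRD5A1 are listed in both species, HSD3B2 only in baboon, and CYP11A1, CYP17A1, HSD3B1 and POR only in rhesus. Thus 6 of the 10 symbols stand among 34178 baboon genes and 9 of the 10 among 21356 rhesus genes. They were described across cell types, above all in barcodes with at least 10 INSL3 UMIs, since INSL3 encodes an insulin-like peptide hormone made by Leydig cells. A UMI is a molecular tag that counts an RNA molecule once. The level of a gene is given as CPM, its UMIs per 1000000 UMIs of the barcodes in a group, and each species was analysed alone.

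The samples were untreated prepubertal animals, 2 baboons and 2 rhesus macaques, with testes collected at necropsy and no genetic alteration or agent in any group. One baboon (libraries 1A and 1B) and one rhesus macaque (2A and 2B) were each sequenced as 2 libraries from the same animal, whereas baboon 2 and rhesus 1 have 1 library each. By the series text, the baboons were 15 and 20 months old and the macaques newborn and 26 months old. Another source gives the species the other way round, and no label ties an age to an animal, so age and animal cannot be told apart. The testes were digested in 2 steps with a wash in between that was meant to deplete interstitial cells, the compartment where Leydig cells lie, so counts of such cells do not give their share of the tissue. The baboon 2 library was made with a later version of the droplet chemistry than the others.

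Steroid synthesis in the testis begins with cholesterol taken up through receptors such as SCARB1 or made in the cell, and with its transfer into mitochondria by STAR, the step that limits the acute rate. There CYP11A1, fed electrons by FDX1, makes pregnenolone; outside the mitochondria HSD3B enzymes and CYP17A1, which depends on POR for electrons, lead to androstenedione. HSD17B3 makes testosterone from it, and SRD5A1 reduces testosterone to dihydrotestosterone. Androgen output of the primate testis is low between the first months after birth and puberty, and in the fetal rodent testis HSD17B3 is known to be expressed in Sertoli cells.

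The libraries held between 16875294 and 49803025 UMIs and gave 5552 to 11165 called cells each, with median depths of 1445 to 2743.5 UMIs per cell. In baboon, 5, 4 and 29 barcodes of libraries 1A, 1B and 2 passed 10 INSL3 UMIs, 38 in all, 35 of them called as cells. They were compared with 23004 other called cells. In rhesus, 634, 115 and 118 barcodes of libraries 1, 2A and 2B passed, 867 in all, 579 of them called, beside 25893 other called cells. The rhesus barcodes not called as cells numbered 221, 34 and 33, with median depths of 589, 335 and 320 UMIs. The threshold cuts through a continuous distribution: 79, 20 and 23 rhesus barcodes held 10 to 12 INSL3 UMIs and 82, 20 and 18 held 8 or 9. Median depth of the INSL3-high barcodes was 1783.5, 2928 and 2644 UMIs in rhesus, beside 1560, 1443 and 1440 in the other cells. Doublets were marked in 55 of 413, 6 of 81 and 5 of 85 called INSL3-high cells of the rhesus libraries, and in 0 of 4, 0 of 4 and 2 of 27 of baboon. Libraries 2A and 2B shared 6 barcode sequences among their INSL3-high barcodes, and rhesus 1 and 2B shared 1.

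The INSL3-high barcodes were checked against marker lists that hold no member. No UMI of an adrenal cortex marker was found in them, whether MC2R in baboon or CYP21A2, CYP11B1 and CYP11B2 in rhesus. The Sertoli list summed to 1112, 299 and 320 CPM in the rhesus INSL3-high barcodes and to 3884, 3628 and 3853 CPM in the other cells. In baboon the same list summed to 260, 814 and 1524 CPM and to 7345, 7359 and 7295 CPM. The stroma list summed to 1455, 945 and 892 CPM in the rhesus INSL3-high barcodes beside 5279, 4242 and 4304. In baboon it was not lower throughout, at 781, 994 and 1561 CPM beside 609, 643 and 1582. At least 3 stroma UMIs were held by 23 of the INSL3-high barcodes of baboon 2 (79.3%). In rhesus, where LHCGR is not listed, the Leydig markers other than INSL3 did not set the INSL3-high barcodes apart from all other called cells. CYB5A, NR5A1, HSD11B1 and PRLR summed to 240.2, 122 and 137 CPM in the INSL3-high barcodes beside 234, 179 and 187. PRLR was at 0 in the INSL3-high barcodes of each library, and CYB5A was the 1 gene detected in those of rhesus 2. This sum was 309, 380 and 398 CPM in called cells with at least 3 Sertoli UMIs. In cells without a Sertoli UMI it was 127, 53.0 and 62.7 CPM, below the INSL3-high barcodes in each library. The latter difference was not tested. In baboon the listed Leydig markers NR5A1, LHCGR, HSD11B1 and PRLR summed to 0, 181 and 258 CPM beside 42.01, 41.99 and 55.4, with HSD11B1 and PRLR at 0 in the INSL3-high barcodes. With these mixed results, the barcodes are named by INSL3 and not as a cell type. Glial markers summed to 782 and 892 CPM in the INSL3-high barcodes of 2A and 2B, with 107 and 118 CPM in their other cells, and to 27.5 CPM in rhesus 1. SOX10 was at 0, and 82 of the 233 INSL3-high barcodes of rhesus 2 (35.2%) held at least 3 of these UMIs. The part of these transcripts in the levels of the members was not tested.

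In rhesus, CYP17A1 and HSD17B3 marked the 2 ends of the range among the members called. The first was near absent outside INSL3-high barcodes, and the second was low within them, as in other cells without a Sertoli UMI. The 250 bases before their annotated starts in rhesus (RefSeq, Mmul_10) are shown for that reason, each written 5′ to 3′ on the strand of its gene. CYP17A1 lies at chr9:103372364-103379292 on the minus strand and its upstream stretch is chr9:103379293-103379542. HSD17B3 lies at chr15:111545697-111600517 on the plus strand and its upstream stretch is chr15:111545447-111545696. Capitals mark a match to AGATAA, the motif bound by GATA factors, which lies 115 bases before the CYP17A1 start.
CYP17A1: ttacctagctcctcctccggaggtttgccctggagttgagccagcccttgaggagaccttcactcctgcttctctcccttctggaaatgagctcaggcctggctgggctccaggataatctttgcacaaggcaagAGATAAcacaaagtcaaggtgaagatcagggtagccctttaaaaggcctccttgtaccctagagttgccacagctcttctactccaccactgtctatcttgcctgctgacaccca
HSD17B3: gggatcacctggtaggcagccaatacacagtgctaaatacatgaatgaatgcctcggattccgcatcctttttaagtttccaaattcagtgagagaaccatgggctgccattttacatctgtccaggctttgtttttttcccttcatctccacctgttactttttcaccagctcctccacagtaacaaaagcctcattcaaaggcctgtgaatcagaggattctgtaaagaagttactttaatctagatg
The windows searched ran from 250 bases before to 50 bases after each start, 300 bases on both strands, and 8 members had one. CYP11A1 and HSD3B1, not found under these symbols in that annotation, were not searched. AGATAA was found in the windows of CYP17A1 and STAR, in that of STAR after the start, and in 9.41% of all 20787 gene windows. CAAGGTCA, a site of the orphan receptor NR5A1, was found in none of the 8 and in 1.32% of all windows. Its shorter form AAGGTCA, contained in it, was found only in that of HSD3B2, 70 bases before the start, and in 3.66% of all. TATAAA was found only in that of FDX1 among the members, after the start and not upstream, and in 11.2% of all. A match is a match of letters and says nothing of binding.

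In rhesus, 6 members, STAR, CYP11A1, HSD3B1, CYP17A1, POR and FDX1, were called higher in INSL3-high barcodes and HSD17B3 lower, in the comparison made within animals. The call of FDX1 was lost under scaling by library totals. SCARB1 and SRD5A1 did not pass. The UMIs were summed per animal and side and tested with edgeR over 12303 genes. Without the animal in the model, 8 genes (0.0650%) passed an adjusted p of 0.05, all higher in INSL3-high barcodes, and 0 of the 9 members were among them, while 1278 genes and 7 members had an unadjusted p under that value. DESeq2 on the same sums called 256 genes and 4 members, STAR, CYP11A1, CYP17A1 and HSD3B1. With the animal as a block, which compares the 2 sides within each animal, 1477 genes (12.0%) passed, 750 higher and 727 lower, and 7 of 9 members were among them. That model leaves 1 residual degree of freedom, so its p-values rest on the spread shared across genes. The median of the members was 1.38 on the log2 scale beside -0.08 for all genes tested without the block.

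**Figure D1:**
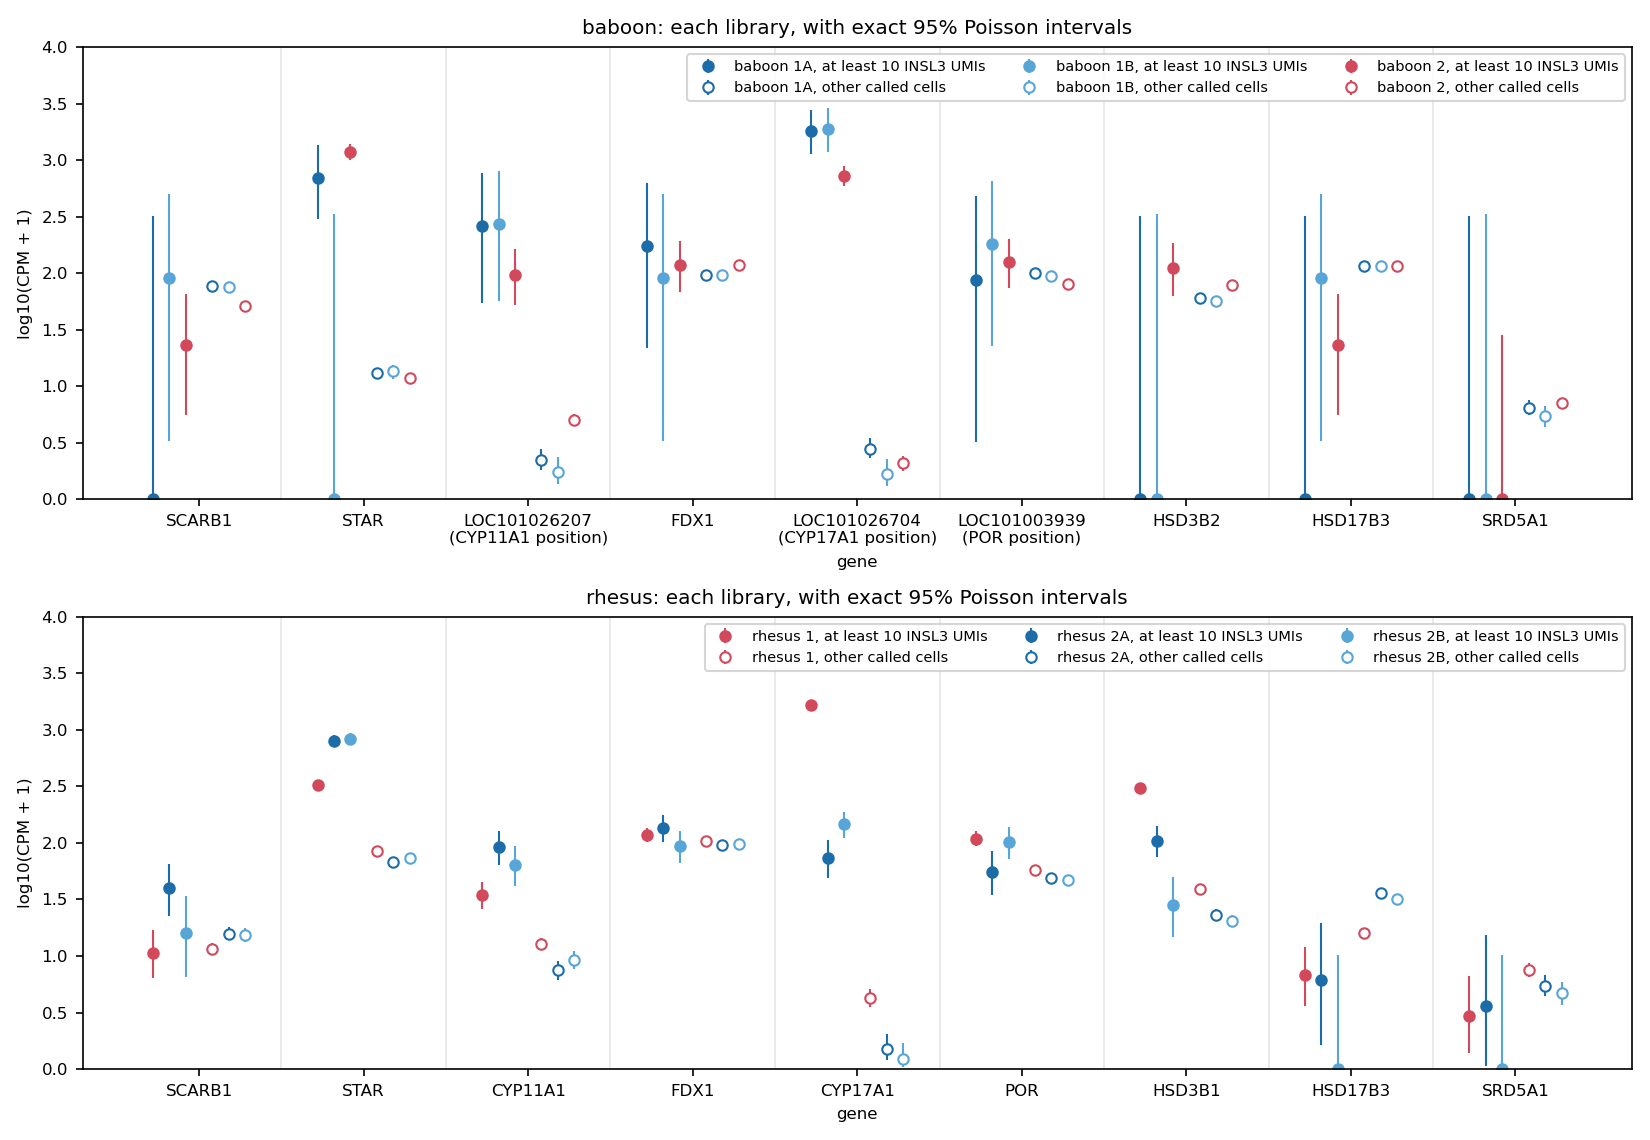
Levels of the members in each library, as log10(CPM + 1), with exact 95% Poisson intervals; filled points are barcodes with at least 10 INSL3 UMIs, open points the other called cells. CYP17A1 and STAR of rhesus lie above the open points in each of the 3 libraries and HSD17B3 lies below, while the lone STAR point at 0 is baboon 1B, with 4 barcodes.

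STAR, the cholesterol carrier into mitochondria, stood at 322, 802 and 834 CPM in the INSL3-high barcodes of rhesus 1, 2A and 2B (exact 95% Poisson intervals 294 to 351, 715 to 897 and 747 to 929). In the other cells it stood at 83.9, 66.8 and 72.9 CPM. Every library pointed the same way, 2A and 2B being from the same animal, and the share of all genes that separate so was not counted. The log2 difference was 3.30 ± 0.25 (SE of the fit, n = 2 animals, adjusted p = 2.76e-37) within animals and 3.40 ± 0.50 (adjusted p = 0.103) without the block. Here and below, such an SE comes from the test statistic and does not show how far the 2 animals lay apart. A STAR UMI was present in 37.5%, 59.1% and 66.1% of INSL3-high barcodes and in 12.7%, 9.62% and 10.9% of other cells. At 1000 UMIs per cell the shares were 21.3% in rhesus 1 (91 of 427) and 44.4% in rhesus 2 (68 of 153), beside 7.29% and 6.27%, with 207 and 80 shallower INSL3-high barcodes and 1679 and 3062 other cells left out. Free RNA, taken from barcodes too small to be cells, held STAR at 91.1, 109 and 115 CPM. Macrophage-like cells showed a UMI in 8.89% (rhesus 1, median depth 1441) and 3.61% (rhesus 2, 1369) of unthinned cells. Whether these UMIs came from free RNA was not tested, and a low share was not read as expression.

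SCARB1, the receptor that takes cholesterol from high-density lipoprotein, did not pass the test. Its levels were 9.61, 39.0 and 15.0 CPM in INSL3-high barcodes, from 15, 15 and 6 UMIs, and 10.6, 14.7 and 14.3 CPM in other cells. Within animals the log2 difference was 0.94 ± 0.40 (adjusted p = 0.117).

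CYP11A1, which cleaves the side chain of cholesterol, stood at 33.3, 90.9 and 62.5 CPM in the INSL3-high barcodes (52, 35 and 25 UMIs; intervals 24.9 to 43.7, 63.3 to 126 and 40.4 to 92.2). The other cells held 11.8, 6.44 and 8.25 CPM, and free RNA 13.4, 15.8 and 16.4 CPM. The lowest INSL3-high library was above the highest of the other cells and of the free RNA, again with no share of all genes counted. Within animals the log2 difference was 2.98 ± 0.30 (adjusted p = 3.77e-20), and without the block 2.99 ± 0.52 (adjusted p = 0.134). FDX1, its electron donor, differed little, with 117, 135 and 92.4 CPM beside 103, 94.3 and 96.2, and 2B ran against the other libraries. Its call within animals (0.76 ± 0.22, adjusted p = 0.0082) was lost when libraries were scaled by their totals alone (0.22, adjusted p = 0.504), and its value without the block was 0.76 ± 0.30 (adjusted p = 0.452).

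HSD3B1, which oxidises the steroid ring on the way to progesterone and androstenedione, spread widely. It stood at 304 CPM in rhesus 1 (474 UMIs, interval 277 to 332), 104 CPM in 2A (40 UMIs, 74.2 to 141) and 27.5 CPM in 2B (11 UMIs, 13.7 to 49.2). The other cells held 38.1, 22.3 and 19.4 CPM and free RNA 43.9, 30.9 and 39.9 CPM, so the INSL3-high level of 2B was below that of its free RNA. One barcode of 2A held 17 of its 40 HSD3B1 UMIs, and it was among the 6 barcode sequences shared with the INSL3-high barcodes of 2B, without all of which 2A stood at 66.1 CPM. The difference was 2.93 ± 0.24 within animals (adjusted p = 1.62e-30) and 3.19 ± 0.76 without the block (adjusted p = 0.239).

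CYP17A1, the hydroxylase and lyase that leads to androgens, differed most. The INSL3-high barcodes of rhesus 1 held 2606 CYP17A1 UMIs, 1669.6 CPM (interval 1606 to 1735), those of 2A 28 UMIs and 72.7 CPM (48.3 to 105), and those of 2B 58 UMIs and 145 CPM (109.9 to 187). The other cells held 3.26, 0.513 and 0.240 CPM. The log2 difference was 9.25 ± 0.35 within animals (adjusted p = 1.51e-149) and 9.45 ± 1.76 without the block (adjusted p = 0.163). A UMI was present in 56.8%, 16.5% and 16.9% of INSL3-high barcodes and in 0.577%, 0.0761% and 0.0413% of the other cells. Macrophage-like cells gave 2.22% (3 of 135 cells) in rhesus 1 and 0 of 83 in rhesus 2. POR, the electron donor of CYP17A1, stood at 108, 54.5 and 99.9 CPM beside 56.9, 48.4 and 45.8. It was higher within animals by 1.37 ± 0.23 (adjusted p = 9.45e-08), and its value without the block was 1.38 ± 0.35 (adjusted p = 0.262).

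HSD17B3, which completes testosterone, was the one member called lower in INSL3-high barcodes, with 5.77, 5.19 and 0 CPM from 9, 2 and 0 UMIs. A count of 0 in 2B allows up to 7.495 CPM at a limit of 3 counts. Its other cells held 15.1, 35.4 and 31.1 CPM, above the INSL3-high barcodes in each library. The difference was -1.66 ± 0.46 within animals (adjusted p = 0.00522) and -1.83 ± 0.59 without the block (adjusted p = 0.359). The other cells include Sertoli-marked cells. A low HSD17B3 level was not particular to INSL3-high barcodes, since cells without a Sertoli UMI were low as well (given below). SRD5A1 gave 3, 1 and 0 UMIs, 1.92, 2.60 and 0 CPM beside 6.52, 4.47 and 3.69, and a difference of -1.23 ± 0.91 (adjusted p = 0.498). Scaling by library totals alone lowered the median gene by 0.54 on the log2 scale within animals and turned the split of calls to 253 higher and 2029 lower of 2282, with 6 members called. STAR (2.75), CYP11A1 (2.43), CYP17A1 (8.73), HSD3B1 (2.39), POR (0.82) and HSD17B3 (-2.20) kept their side of the threshold.

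**Figure D2:**
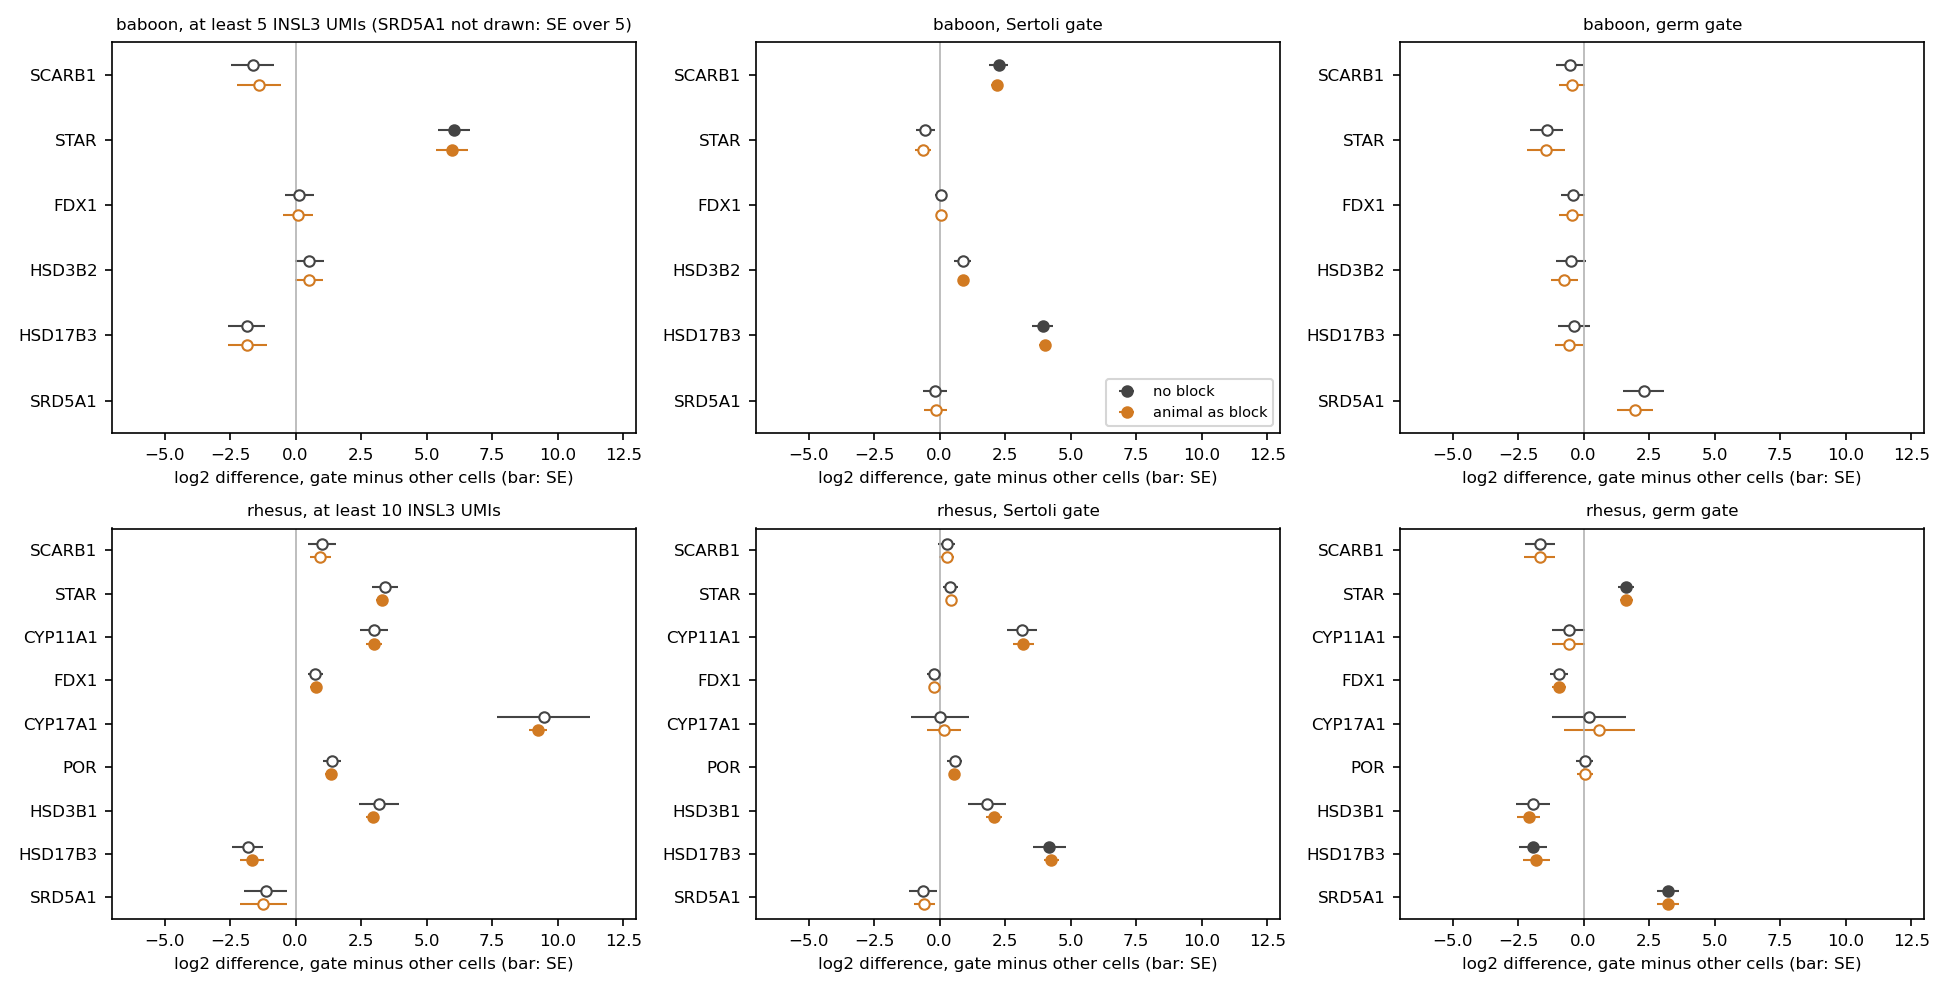
Log2 difference of each member between the cells of a gate and the others, with bars of the SE of the fit, for baboon above and rhesus below; black is the model without the animal, orange the model with the animal as a block, and filled points passed an adjusted p of 0.05. Among rhesus INSL3-high barcodes the 7 filled points are all orange, whereas STAR of baboon is filled in both models.

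The 2 macaques differed in the levels of their INSL3-high barcodes by more than the 2 libraries of rhesus 2 did for STAR and CYP17A1. CYP17A1 averaged 889.5 ± 1103 CPM (SD, n = 2 animals), 15.2 times higher in rhesus 1 than in rhesus 2. HSD3B1 averaged 184 ± 169 CPM and was 4.68 times higher in rhesus 1. The opposite order held for STAR (570.2 ± 352 CPM, rhesus 1 at 0.393 of rhesus 2) and CYP11A1 (54.9 ± 30.5 CPM, 0.436). POR (92.7 ± 21.2 CPM) and FDX1 (115 ± 2.32 CPM) were closer. Within each animal, the ratio of INSL3-high to other cells was 3.83 and 11.7 for STAR, 2.82 and 10.5 for CYP11A1, 7.97 and 3.11 for HSD3B1, 512 and 286 for CYP17A1, and 1.89 and 1.65 for POR. With 1 animal on each side, the difference between the macaques could not be tested, and age, animal and digestion cannot be told apart. Thinned to 1000 UMIs per cell, CYP17A1 was seen in 55.7% (238 of 427) of INSL3-high barcodes of rhesus 1 and in 6.54% (10 of 153) of those of rhesus 2. Of the 28 and 58 CYP17A1 UMIs of 2A and 2B, 0 and 1 lay in barcode sequences that were INSL3-high in rhesus 1. Leaving out shared barcode sequences moved CYP17A1 of 2A and 2B only to 69.0 and 147 CPM.

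CYP17A1 of rhesus 1 was higher in each higher bin of INSL3 UMIs, a description with no test. It stood at 4.42 CPM at 1 to 4 INSL3 UMIs, 213 at 5 to 9, 243 at 10 to 19, 834 at 20 to 49, 1564 at 50 to 99 and 2278 at 100 or more. The lowest bin holds called cells alone and the others also barcodes not called as cells, so the first step compares unlike groups. In rhesus 2 the same bins held 0.392, 39.4, 25.2, 9.17, 23.8 and 169.9 CPM, and 80 of its 86 UMIs were in the 74 barcodes with 100 or more INSL3 UMIs. STAR of rhesus 2 was already at 525 CPM at 5 to 9 INSL3 UMIs and at 964 in the top bin, while in rhesus 1 the same 2 bins held 59.3 and 381 CPM. Depth moved with the bins, from a median of 422 UMIs at 5 to 9 INSL3 UMIs to 4320 at 100 or more in rhesus 1, and from 260 to 6113.5 in rhesus 2. HSD17B3 of rhesus 1 went the other way at the top, with 0 CPM in barcodes of 100 or more.

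**Figure D3:**
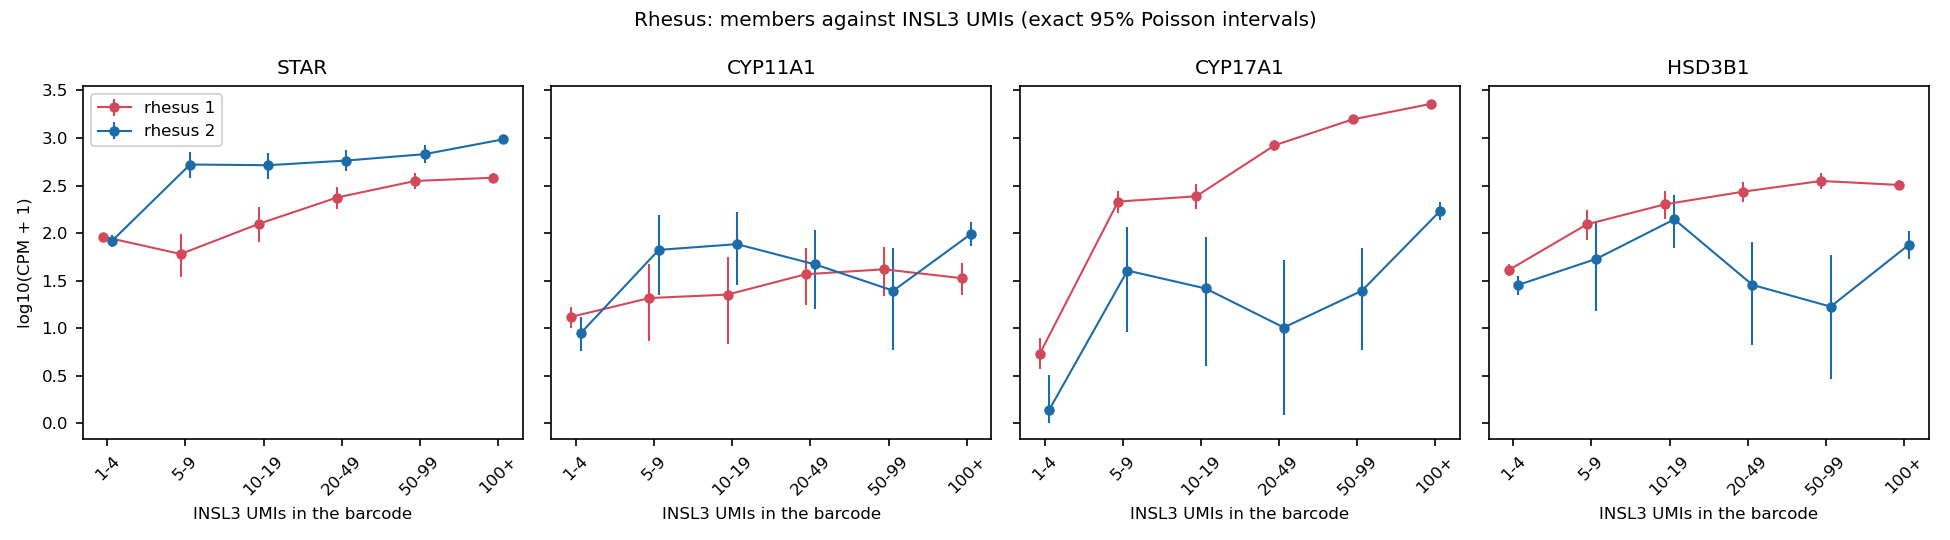
STAR, CYP11A1, CYP17A1 and HSD3B1 as log10(CPM + 1) in rhesus barcodes grouped by INSL3 UMIs, with exact 95% Poisson intervals, rhesus 1 in red and rhesus 2 in blue. The CYP17A1 line of rhesus 1 lies above that of rhesus 2 in every bin. The lines reach 2278 and 169.9 CPM in the top bin, where the STAR lines lie in the opposite order. The lowest bin holds called cells alone, the others also barcodes not called as cells.

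STAR and CYP17A1 also met in single barcodes. Of 427 INSL3-high barcodes of rhesus 1 with at least 1000 UMIs, 219 held STAR, 299 held CYP17A1 and 184 held both, so CYP17A1 was in 84.0% of those with STAR and in 70.0% of all. In rhesus 2, with 153 such barcodes, 128 held STAR, 37 CYP17A1 and 34 both, 26.6% of those with STAR and 24.2% of all. Of STAR, CYP17A1, HSD3B1 and CYP11A1, all 4 were seen in 9 barcodes of rhesus 1 and 2 of rhesus 2, and none in 64 and 15. Other pairs varied. HSD3B1 was in 38.5% and 27.0% of the barcodes with CYP17A1 in rhesus 1 and 2, beside 34.7% and 13.7% of all. CYP11A1 was in 8.78% and 14.3% of those with HSD3B1, beside 8.90% and 27.5% of all. Deeper barcodes show more genes, so these overlaps are descriptions.

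In baboon, STAR was far higher in INSL3-high barcodes than elsewhere and no other listed member passed the test. At 10 INSL3 UMIs, baboon 1 had 9 barcodes, below the 10 set for a test, so the levels are given as values. STAR stood at 694 CPM in 1A (8 UMIs, interval 299.6 to 1368), 0 in 1B and 1186 CPM in baboon 2 (161 UMIs, 1009 to 1383), beside 12.1, 12.5 and 10.8 CPM in the other cells. The 0 UMIs in 4 barcodes of 1B allow up to 271 CPM at a limit of 3 counts and 333 CPM at the exact upper bound, which overlaps the interval of 1A. Baboon 1 as a whole held 354 CPM, and the 2 animals averaged 769.8 ± 588 CPM (SD, n = 2) in INSL3-high barcodes and 11.5 ± 0.987 CPM in the others. A STAR UMI was present in 80%, 0% and 82.8% of INSL3-high barcodes (4 of 5, 0 of 4 and 24 of 29) and in 2.59%, 2.65% and 4.88% of other cells, and in 1 of 120 macrophage-like cells (0.833%, median depth 2019). That macrophage-like cluster carried all 6 lymphoid markers beside 7 macrophage markers, so its cells may not be macrophages alone. FDX1 was near its background, at 173.5, 90.4 and 118 CPM beside 94.5, 94.5 and 118. HSD17B3 gave 0, 1 and 3 UMIs beside 115 to 116 CPM in the others, SCARB1 also 0, 1 and 3 UMIs, and SRD5A1 none, which allows up to 22.1 CPM in baboon 2. HSD3B2, a second enzyme of the HSD3B family, was at 0, 0 and 110.5 CPM (15 UMIs, 61.8 to 182) beside 59.4, 56.1 and 77.0.

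A gate of 5 INSL3 UMIs gave 17 barcodes in baboon 1 and 41 in baboon 2 and could be tested over 15098 genes. Of these, 295 (1.95%) were called, 166 higher and 129 lower, and 198 (1.31%) with the animal as a block, 141 higher and 57 lower. STAR was the 1 member called, in both models, 6.03 ± 0.61 on the log2 scale (SE of the fit, n = 2 animals, adjusted p = 6.43e-20) and 5.95 ± 0.60 with the block (adjusted p = 8.64e-20). Scaled by library totals it was 6.15, with calls split 188 to 145 and, with the block, 206 to 191, while DESeq2 size factors gave 171 to 78. By the ratio of CPM, with a small count added to each side, it was 6.64 on the log2 scale in baboon 2 alone and 5.34 in baboon 1 alone. HSD17B3 (-1.87 ± 0.71, adjusted p = 0.197), SCARB1 (-1.64 ± 0.80, adjusted p = 0.416), HSD3B2 (0.53 ± 0.55, adjusted p = 0.735) and FDX1 (0.13 ± 0.55, adjusted p = 0.911) did not pass. Leaving out 1A or 1B left under 10 barcodes in baboon 1 and no test. Keeping called cells alone left 9 of the 17 barcodes of baboon 1 and 35 of the 41 of baboon 2, again with no test. The baboon INSL3 test was therefore possible only with barcodes not called as cells.

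Baboon genes without these symbols stand at 3 positions where the unlisted members were looked for, 2 of them by the rhesus annotation. They were taken by position after values were seen, with 1 protein-coding gene between the same neighbours in both annotations, and a shared position does not establish their identity. LOC101026704 (chr11:30599708-30607097, Panubis1.0), between WBP1L and BORCS7, stands where rhesus has CYP17A1. It was at 1822, 1898 and 722 CPM in the INSL3-high barcodes (21, 21 and 98 UMIs) beside 1.81, 0.679 and 1.08 CPM, and was present in 9 of the 9 INSL3-high barcodes of baboon 1. With the gate of 5 UMIs the difference was 9.67 ± 0.73 (adjusted p = 1.11e-35, with the block 9.63 ± 0.64). LOC101026207 (chr7:114363757-114393673), between SEMA7A and CCDC33, stands in the interval that holds CYP11A1 in human, where the rhesus annotation has LOC708065. It was at 260.3, 271 and 95.7 CPM from 3, 3 and 13 UMIs beside 1.24, 0.754 and 4.01, a difference of 5.45 ± 0.71 (adjusted p = 1.43e-11) and of 4.86 ± 0.69 with the block, but 4.34 in baboon 2 alone and 7.91 in baboon 1 alone by the same ratio. LOC101003939 (chr4:136953319-137032504), between TMEM120A and RHBDD2 at the position of POR, was at 86.8, 180.8 and 125 CPM beside 99.2, 93.1 and 79.2, and did not pass (0.39 ± 0.55, adjusted p = 0.771). Of the 29 INSL3-high barcodes of baboon 2, 24 held STAR, 20 held LOC101026704 and 19 held both.

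HSD17B3 followed the Sertoli markers in both species. Called cells with at least 3 UMIs over a Sertoli list (SOX9, AMH and others, no member) were compared with cells without any. In baboon, where 2831 of 16304 genes (17.4%) were called, 1199 higher and 1632 lower, HSD17B3 stood at 123.5, 124 and 134 CPM in 1A, 1B and 2 beside 11.1, 14.3 and 5.98 CPM. It was higher in each library, and the difference was 3.93 ± 0.41 (adjusted p = 0.00659). Depth differed between these groups, with medians of 2037, 2048 and 4379 UMIs against 1157.5, 1241 and 1658.5, and at 1000 UMIs per cell an HSD17B3 UMI was present in 11.6% against 1.47%, 1.64% and 0.545%. These shares rest on 7500, 4333 and 4354 Sertoli-marked cells and 408, 244 and 1467 others deep enough. SCARB1 stood at 81.4, 80.0 and 56.7 CPM beside 20.9, 10.2 and 13.2, a difference of 2.26 ± 0.36 (adjusted p = 0.0155). HSD3B2 (62.2, 58.2 and 82.8 beside 25.8, 32.7 and 49.4 CPM) and LOC101003939 passed only with the animal as a block (adjusted p = 7.77e-05 and 0.00786, without it 0.128 and 0.239), a model with 7140 calls (43.8%). STAR did not pass (-0.55, adjusted p = 0.386).

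In rhesus, 280 of 12341 genes (2.27%) were called by the same comparison, 205 higher and 75 lower, HSD17B3 being the 1 member. It stood at 23.2, 87.1 and 76.0 CPM in Sertoli-marked cells of rhesus 1, 2A and 2B beside 1.74, 3.04 and 3.37, a difference of 4.18 ± 0.63 (adjusted p = 0.0454). At 1000 UMIs per cell the shares were 2.06%, 9.11% and 7.40% against 0.198%, 0.248% and 0.329%, so rhesus 1 had the lowest share on the Sertoli side, over 4846, 2063 and 1999 cells against 2016, 2420 and 2129. Asking for only 2 UMIs left 0 genes called and HSD17B3 at 3.97 (adjusted p = 0.0834). HSD17B3 of the INSL3-high barcodes (5.77, 5.19 and 0 CPM) was above that of cells without a Sertoli UMI in rhesus 1 and 2A and below it in 2B. With the animal as a block 3760 genes (30.5%) passed, 1995 higher and 1765 lower, and HSD17B3 (4.25 ± 0.29, adjusted p = 3.37e-09) was joined by CYP11A1 (3.19 ± 0.39, adjusted p = 3.47e-06), HSD3B1 (2.07 ± 0.30, adjusted p = 2.5e-05) and POR (0.55, adjusted p = 0.037). Without the block these 3 had adjusted p = 0.065, 0.248 and 0.334. CYP11A1 was at 16.9, 14.7 and 19.8 CPM in Sertoli-marked cells and at 2.73, 1.30 and 0.964 in cells without a marker UMI. Its level in Sertoli-marked cells was close to that of the free RNA given above, and below it in 2A. HSD3B1 was at 48.6, 49.7 and 43.4 CPM beside 21.6, 4.78 and 5.06, the wider gap being that of rhesus 2. In rhesus 1 and 2B its level in Sertoli-marked cells was little above that of the free RNA. Scaled by totals alone, the calls were 436 (313 higher, 123 lower) and 2390 with the block (1389 and 1001), CYP11A1 passed without the block (adjusted p = 0.0376) and POR lost its call with it (0.63, adjusted p = 0.0895). CYP17A1 was at 3.12, 0.955 and 0.421 CPM beside 3.97, 0.217 and 0.241, and its sign changed between models.

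In rhesus, SRD5A1 and STAR followed the germ cell markers, whereas the main baboon comparison called neither. In the macaques, 237, 21 and 22 called cells held at least 3 UMIs over a germ list (DDX4, DAZL and others) and were compared with those without any. Of 12895 genes, 2950 (22.9%) were called, and 4363 (33.8%) with the animal as a block. SRD5A1 stood at 44.7, 50.5 and 30.3 CPM, from 54, 15 and 7 UMIs, beside 3.64, 3.61 and 3.32, a difference of 3.22 ± 0.42 (adjusted p = 0.00399). STAR stood at 276, 309 and 199 CPM beside 69.0, 59.2 and 70.1, a difference of 1.62 ± 0.31 (adjusted p = 0.0121). HSD17B3 was lower (-1.92 ± 0.53, adjusted p = 0.0382), a call lost without 2A (adjusted p = 0.0748) or 2B (adjusted p = 0.0596) and under scaling by totals (-1.60, adjusted p = 0.0798). With the block HSD3B1 (-2.09 ± 0.43, adjusted p = 0.00467) and FDX1 (-0.95 ± 0.27, adjusted p = 0.0217) also passed as lower, which they did not without it (adjusted p = 0.0712 and 0.079), and FDX1 lost its call under totals (-0.56, adjusted p = 0.177). Scaling by totals gave 2379 higher and 978 lower calls in place of 1594 and 1356.

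Germ-marked cells of rhesus were deep, with medians of 3345, 13465 and 12410.5 UMIs against 1541, 1428 and 1427. At 1000 UMIs per cell, STAR was in 19.6%, 21.1% and 5.26% of them and in 6.42%, 5.73% and 6.77% of the others, so the share of 2B, 1 of 19 cells, was not above its background. The shares of rhesus 1 and 2A rest on 230 and 19 germ-marked cells. Keeping only germ-marked cells with fewer than 3 Sertoli UMIs (144, 9 and 10 cells) gave STAR at 324, 324 and 182 CPM, a difference of 1.73 ± 0.38 (adjusted p = 0.00411), with 2829 of 12245 genes called (23.1%). All 3 libraries gave STAR above the cells without a germ UMI in CPM.

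In baboon the germ comparison called 4 of 16384 genes (0.0244%) and 0 of the 6 members, with 1639 genes at an unadjusted p under 0.05, and 974 (5.94%) with the animal as a block, again with 0 members. DESeq2 called 1253. The germ gate held 164 cells of baboon 1 and 629 of baboon 2, where the germ-like cluster held 122 cells of baboon 2. Those 629 cells were deep, with 13493021 UMIs beside 16385718 in 5588 cells without a germ UMI. Sertoli UMIs were frequent in these germ-marked cells: 84.8% of those of baboon 1 and 93.6% of those of baboon 2 held at least 3. With such cells left out, a comparison added after the data were seen, 25 and 40 cells remained, 3465 of 14758 genes (23.5%) were called and 4 members with them. SRD5A1 was higher, at 67.1, 116 and 89.3 CPM, a difference of 3.80 ± 0.52 (adjusted p = 2.6e-04). HSD3B2 (-5.48 ± 0.82, adjusted p = 5.0e-04), SCARB1 (-4.30 ± 0.80, adjusted p = 0.00214) and HSD17B3 (-3.54 ± 0.56, adjusted p = 7.25e-04) were lower. The removal of Sertoli UMIs favours a lower level of genes that go with them. In all germ-marked cells SRD5A1 stood at 43.9, 41.7 and 8.89 CPM beside 3.84, 2.79 and 4.88 (2.29 ± 0.79, adjusted p = 0.286). STAR was not high in baboon germ-marked cells, at 2.19, 10.4 and 7.04 CPM beside 13.3, 12.8 and 14.5, in contrast to its levels in the macaques, a difference between species that was not tested.

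Clusters of all called cells, 14 in baboon and 15 in rhesus, gave the order of levels over cell types as a description, since every gene took part in the clustering. A cluster led by INSL3 held 31 of 35 called INSL3-high cells of baboon (88.6%, exact Clopper-Pearson interval 73.3 to 96.8) and 512 of 579 of rhesus (88.4%, 85.5 to 90.9). INSL3-high cells were 2.42% of its 1279 cells in baboon and 90.3% of its 567 in rhesus, and it was left unnamed in both. In rhesus it carried 2 of 5 listed Leydig markers, INSL3 and CYB5A, and as many smooth muscle markers, ACTA2 and MYH11. CYB5A passed in Sertoli-like clusters as well, and INSL3 in a stroma-like and a macrophage-like cluster among others. In baboon it carried 6 stroma markers, DCN, COL1A1 and PDGFRA among them, but its 10 leading genes held the Leydig marker INSL3 and no stroma marker.

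Of the transport genes, STAR of rhesus was highest in the INSL3-led cluster (512 CPM), then in germ-like (280.3) and Sertoli-like cells (85.9). The other classes ran from 38.0 CPM in macrophage-like to 67.8 in myoid-like cells, and these and the Sertoli-like cells were below the free RNA of their libraries and overlapped between libraries. The first 3 kept this order in every library, with 349, 737 and 791 CPM in the INSL3-led cluster, 280.3, 326 and 220.2 in germ-like and 81.4, 89.1 and 92.5 in Sertoli-like cells of rhesus 1, 2A and 2B. In baboon STAR was at 95.9 CPM in the INSL3-led cluster (54.4, 9.80 and 118 by library), with 379.6 and 1429.8 CPM in its 7 and 24 INSL3-high cells of baboon 1 and 2 and 26.0 and 40.8 CPM in its 505 and 716 cells without an INSL3 UMI, and from 0.879 in germ-like to 11.2 in Sertoli-like cells. SCARB1 was highest in endothelial-like cells of rhesus (46.8 CPM, from 31.6 to 51.7 by library) with 4.58 to 19.02 in the rest. In baboon it was highest in an HBB-led cluster (83.2) and in Sertoli-like cells (69.3), whose library ranges overlapped, then in endothelial-like cells (41.3). That cluster carried 8 of the 9 Sertoli markers and was left unnamed because its 10 leading genes held HBB, a globin gene of red blood cells, and no Sertoli marker.

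Among the enzymes of early steps, CYP11A1 was at 51.5 CPM in the INSL3-led cluster of rhesus and at 20.7 in Sertoli-like cells, whose libraries ran from 16.5 to 22.1, below each of the libraries of the former (36.4, 87.1 and 63.3). HSD3B1 was at 232 CPM in the INSL3-led cluster but spread from 337 to 31.6 over libraries, so that 2B was below the Sertoli-like cells (51.2 to 59.9). Sertoli-like cells and an unnamed cluster led by COX4I2 and RGS5, genes of vascular mural cells, came next with 56.4 and 56.5 CPM, the latter from 8.99 to 141 by library. HSD3B2 of baboon was highest in pericyte-like cells (188 CPM, by library 238, 74.5 and 184), then in the INSL3-led cluster (108) and Sertoli-like cells (75.2), orders that overlapped between libraries. In baboon cells of that cluster without an INSL3 UMI, HSD3B2 was at 61.5 and 121 CPM in animals 1 and 2, so it was also present where INSL3 was not detected.

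CYP17A1 of rhesus was at 1222 CPM in the INSL3-led cluster and at no more than 6.34 CPM in any other class, and LOC101026704 of baboon at 50.1 CPM and no more than 5.01. Few cells carried the latter: it was at 1898 and 854 CPM in the INSL3-high cells of that cluster in baboon 1 and 2 and at 8.20 (6 UMIs, all in 1 cell) and 0.537 CPM in its cells without an INSL3 UMI. FDX1 varied least, from 73.8 to 131 CPM over the rhesus classes other than myoid-like cells (20.9) and from 86.0 to 114 in baboon other than pericyte-like cells (55.1). POR of rhesus ran from 15.6 in myoid-like cells to 106 in the INSL3-led cluster and 69.4 in Sertoli-like cells. HSD17B3 was highest in Sertoli-like cells of rhesus (63.1 CPM, with 29.8 in rhesus 1 against 107 and 90.0 in 2A and 2B) and at no more than 8.45 elsewhere. In baboon it was at 144 CPM in the HBB-led cluster with Sertoli markers and 134 in Sertoli-like cells, which overlapped between libraries, and from 10.0 to 27.6 in the rest. SRD5A1 was highest in germ-like cells of both species, 47.3 CPM in rhesus (50.6, 45.2 and 32.0) and 52.3 in baboon (56.8, 54.5 and 49.2), against no more than 5.21 and 7.16 in any other class.

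**Figure D4:**
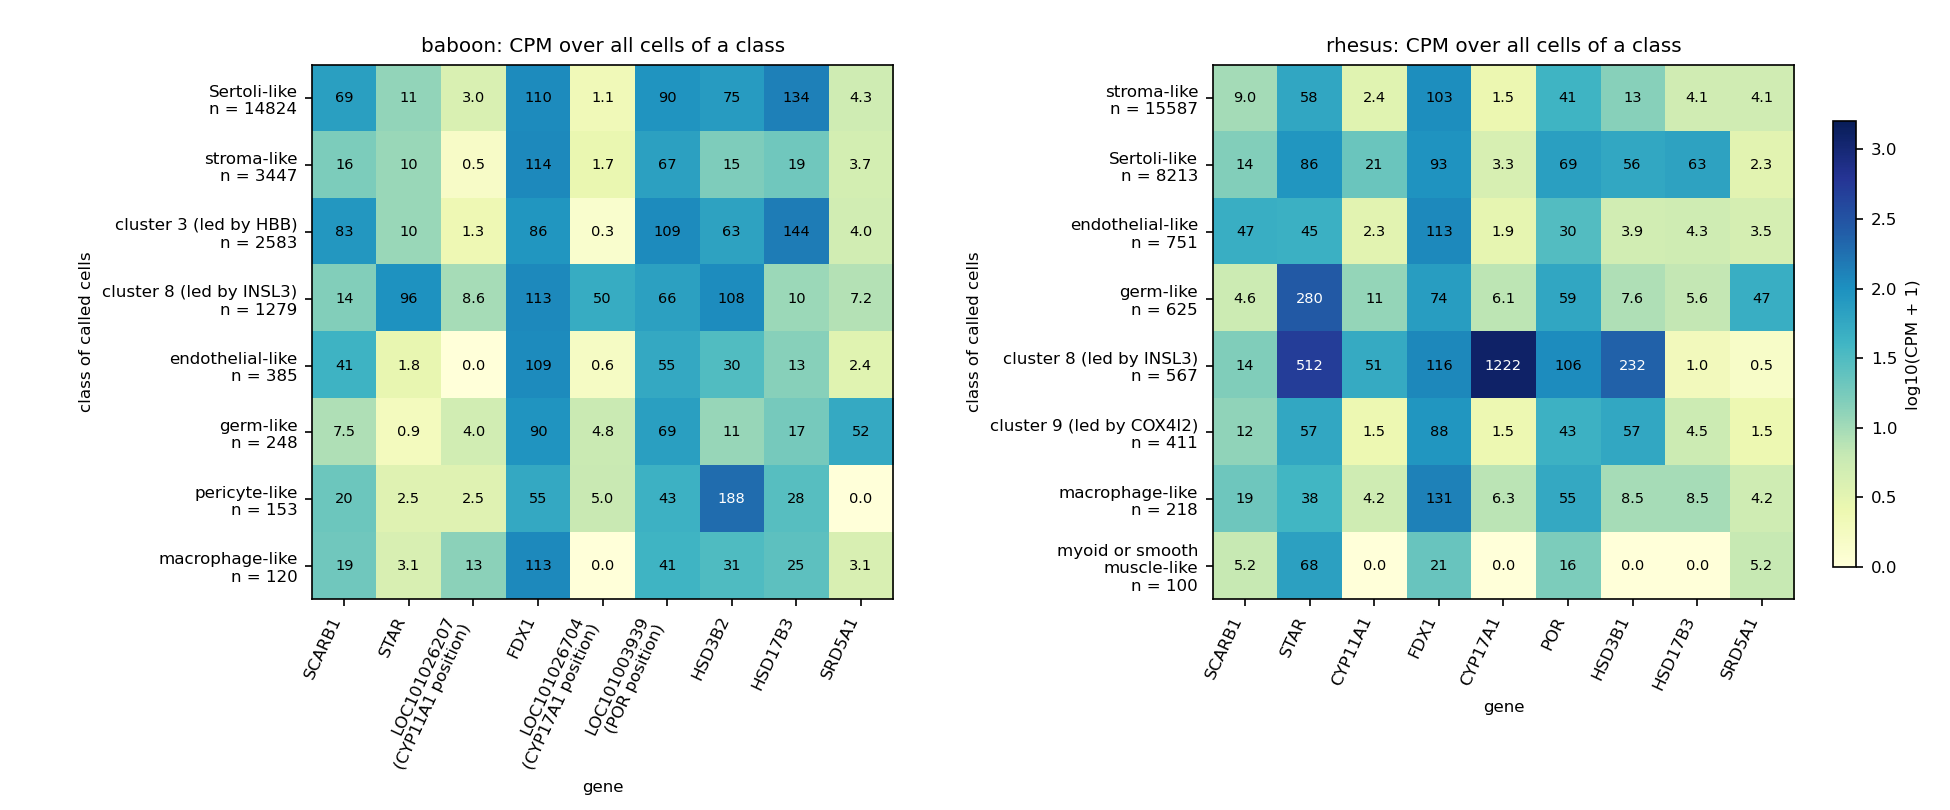
Level of each member (CPM, with color as log10(CPM + 1)) over all cells of a class, for baboon on the left and rhesus on the right, n being the number of cells. HSD17B3 and SRD5A1 are high in other rows than STAR and CYP17A1: 134 CPM in Sertoli-like cells of baboon and 47.3 CPM in germ-like cells of rhesus.

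Genes that work beside the members were taken as lists. In the rhesus INSL3-high barcodes none of the 6 lists had a call without the block, and with it the share of all genes called was 12.0% and the median of all genes -0.09. Of the partners of steroid enzymes, 2 of 5 tested were higher with a median of 1.14: CYB5R3, which reduces cytochrome b5 (520.2, 415 and 469.7 CPM beside 184, 150.05 and 164; 2.04 ± 0.23), and FDXR, which reduces FDX1 (249.9, 299 and 299.8 beside 224, 139 and 151; 1.14 ± 0.22). Of 10 other steroid dehydrogenases and reductases tested, 0 passed, with a median of -0.05. Of the 17 genes of cholesterol synthesis tested, with a median of 0.69, 0 were lower, and TM7SF2, NSDHL and PMVK were among the higher ones with 1.03, 0.95 and 0.87. TM7SF2 (70.5, 114 and 192 beside 81.6, 67.0 and 68.8 CPM) was lower in rhesus 1 and NSDHL (28.2, 31.2 and 17.5 beside 19.3, 21.0 and 19.9) lower in 2B by CPM, while PMVK (65.99, 70.1 and 67.5 beside 58.5, 50.2 and 47.0) was higher in each library. Scaling by totals lowers the median gene by 0.54, and the calls of the lists were not recomputed under it. Uptake, storage and transport had 3 higher, 1 lower and 12 without a call (median 0.41), among them LIPA, the lysosomal lipase that frees cholesterol (51.3, 103.9 and 59.96 beside 31.8, 37.1 and 35.1 CPM; 1.47 ± 0.24), and LRP1, a receptor of lipoprotein remnants, as the lower one (-0.85). PLIN3, a lipid droplet protein, was at 0.66 and NPC1, which exports cholesterol from lysosomes, at 1.39 from 39 UMIs, named after its value was seen.

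Of 7 genes of sterol sensing, SREBF1 (1.37) and SCAP (1.00) were higher and 5 had no call, with a median of -0.26. Of 11 trophic receptors and transcription factors tested, NR2F2 was higher (1.02; 224, 338 and 335 beside 155, 243 and 258 CPM) and TCF21 (-1.78), CREM (-1.08) and, named after its value was seen with 25 UMIs, NR0B1 (-1.53) were lower. In baboon with the gate of 5 UMIs the median of all genes was -0.71. NR2F2 was higher by 2.94 ± 0.54 (adjusted p = 1.32e-05), at 701, 812 and 765 CPM beside 48.8, 48.6 and 133. Partners (4 tested), dehydrogenases (10), uptake (15) and sensing (7) had 0 calls, with medians of -3.52, -0.41, -0.33 and -0.25, where 295 of all genes were called and 1680 had an unadjusted p under 0.05. The block called NR2F2 as well (2.98) and 0 genes of these 4 lists.

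Outside the lists, the secreted glycoprotein gene STC1 and PROK1, a peptide of the prokineticin family made in steroid-producing glands, were among the largest differences in both species. STC1 stood at 1502, 1758 and 1629 CPM in rhesus INSL3-high barcodes beside 47.5, 42.3 and 39.3 (5.71 ± 0.38, adjusted p = 0.0152 without the block). In the baboon barcodes with at least 5 INSL3 UMIs it stood at 701, 2111 and 542 CPM beside 5.09, 2.94 and 10.3 (6.76 ± 0.63). PROK1 gave 5.48 in rhesus (adjusted p = 0.033 without the block) and 5.70 ± 0.57 in baboon, at 312, 649 and 512 CPM beside 8.36, 6.56 and 9.88. RHBG (7.05 ± 0.60, adjusted p = 0.0202) and MGARP (5.11, adjusted p = 0.0159) were further rhesus calls without the block, and INMT (7.18 ± 0.59), PGRMC1 (4.58) and DLK1 (4.01) further baboon ones. The genes whose levels over clusters were most like the mean of STAR, CYP11A1 and CYP17A1 in rhesus were, of those with a symbol, TMEM97, TSPAN8, INSL3, POMT2 and KRT80, with Pearson's r from 0.768 to 0.852, beside 1 without a symbol at 0.863, over 15 clusters among 11053 genes. In baboon, with STAR alone as the reference, they were CTRL, KCNIP1, KLHDC8A and DUSP9, beside 2 without a symbol, with r from 0.857 to 0.907 over 14 clusters among 13923 genes. Clusters share libraries and 1 cluster carries most of the level, so these are descriptions.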

How the data were processed

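The authors deposited UMI counts per gene for all barcodes, before any cell call, made with Cell Ranger on the Panubis1.0 (baboon) and Mmul_10 (rhesus) genomes; the submitters' processing notes name Cell Ranger 3.1.0 and Seurat 3.2.3. From these counts, cells were called by a UMI cutoff (the 99th percentile of 5000 targeted cells divided by 10) and by comparing barcodes of at least 500 UMIs with free RNA from ranks 45001 to 90000 (10000 simulations, adjusted p of 0.01), with at least 200 genes. Doublets were marked and kept, and left out as an alternative. Cells were clustered with Seurat 5.3.0 and sctransform 0.4.2 (3000 integration features, 30 principal components, resolution 0.5). A cluster was named only where 3 markers of a list passed a fold of 2 and 5% of cells and its 10 leading genes held no more markers of another list than of its own.

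Animals are the replicates (2 per species). UMIs were summed per animal and side of a gate and tested with edgeR 4.0.16 in R 4.3.3 (quasi-likelihood test, TMM, low counts filtered, Benjamini-Hochberg over all genes tested, threshold 0.05), wherever an animal had at least 10 barcodes on each side; the study tested single cells, which were not treated as replicates here. The gates were at least 10 INSL3 UMIs against fewer, or at least 3 UMIs of the germ or Sertoli list against none; INSL3 and the lists chose the cells, and no member did. Both sums of a pair come from the same animal, so the animal was also fitted as a block; the deviations of paired sums correlated at 0.166 to 0.504 in baboon and 0.238 to 0.685 in rhesus. DESeq2 1.42.0, library totals, no filter, libraries as samples and other gates were alternatives. On simulated data with 200 genes changed by a factor of 4, the rhesus INSL3 comparison called 97% of them, and the baboon one at 5 INSL3 UMIs 76%. The simulated counts held no difference between animals and a fixed spread, and only genes with enough counts were changed. These shares therefore do not measure the power of the real comparisons, where animals differed. Intervals are exact Poisson or Clopper-Pearson at 95% and cover counting error only, as does the limit of 3 counts for a count of 0. An SE of a log2 difference is the size of the difference divided by the square root of the F statistic of the test. It is not a spread over animals.

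The members, gene lists and gates were chosen with earlier results of these data known. All members are named; of each list, at most 4 genes called in the INSL3 comparison with the largest difference and at least 50 UMIs over the INSL3-high barcodes; and the 6 largest other calls, symbols only. Exceptions are stated beside them, and some list genes are not reported here. Rhesus coordinates and promoters are from RefSeq (Mmul_10), matched by symbol. HSD3B1 has 2 entries in the rhesus gene list and HSD3B2 has 0, whereas RefSeq lists HSD3B2 and not HSD3B1 for that genome. The 2 names may therefore not mark distinct genes across the lists. Reads of HSD3B1 and its close copies may be split between them by the counting.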

Additional observations from a re-analysis of the deposited data

Results flagged for a closer look

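HSD3B2 of baboon had opposite signs in the libraries of the 2 animals. INSL3-high barcodes minus other cells gave -59.4 CPM in library 1A and -56.1 CPM in 1B, both of baboon 1, and 33.5 CPM in baboon 2, from 15 UMIs in 29 barcodes. The 0 UMIs in the 9 barcodes of baboon 1 allow up to 133 CPM, above both its other cells (58.2 CPM) and the level of baboon 2 (110.5 CPM), so no direction is established there and the difference was not tested.

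SCARB1 of rhesus had a negative sign in rhesus 1 (-0.996 CPM) and a positive one in 2A (24.2 CPM) and 2B (0.646 CPM). The exact intervals of the INSL3-high barcodes hold the level of the other cells in rhesus 1 (5.38 to 15.9 beside 10.6 CPM) and 2B (5.50 to 32.6 beside 14.3), so 2A alone stood apart (21.8 to 64.2 beside 14.7). The difference between the animals was not tested.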

How the results depend on the processing

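Of the comparisons of single genes, 639 alternatives were unchanged, 57 gained a call and 5 lost one. A further 40 moved a value and 14 turned a direction. The cause was not tested for any of them. Unchanged means the same direction and call where a test was made, and refers to the value alone where none was. The latter holds for 76 of the 639, from the untested baboon comparison of INSL3-high barcodes, and for other alternatives without a test. In the rhesus INSL3 comparison the genes called (8) became 4 with DESeq2 size factors, 643 without the filter, 1477 with the block, 23 with totals alone, 2282 with totals and block, 256 with DESeq2, 494 with libraries as samples and 0 at 5 INSL3 UMIs, and the members called (0) became 6, 7 and 6 (no filter, block, totals and block) and 4 with DESeq2 or libraries as samples; without 1 library of rhesus 2 the genes numbered 8 to 12 and the members 0. Without rhesus 1, as log2 ratios of CPM with a small count added and no test, HSD3B1 was 1.65, POR 0.73, FDX1 0.26 and HSD17B3 -3.39. Baboon at 5 INSL3 UMIs (295) gave 459 with cells called by the UMI cutoff alone.

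Rhesus Sertoli calls (280) became 855 without the filter, 3760 with the block, 436 with totals, 2390 with both, 1190 with DESeq2, 2962 with libraries, 528 without doublets and 0 at 2 UMIs; members (1) became 2 (no filter, totals, DESeq2, without doublets), 3 (totals and block, libraries), 4 (block) and 0 (2 UMIs); leaving out a library gave 272 to 290. CYP17A1 there (-0.0003) turned to 0.0147 without the filter, 0.17 with the block, 0.22 with totals and block, 0.21 without doublets, and 0.68 by the UMI cutoff alone, with values without 1 library from -0.12 to 1.39 (0.04 without 2B). Rhesus germ calls (2950) became 4773 without the filter, 4701 with totals and block and 5015 with libraries, and 2524 to 2631 without a library; members (3) became 6 without the filter, 5 with the block, 5 under 3 Sertoli UMIs and 2 without a library. POR (0.04) turned to -0.13 without the filter, -0.0078 with DESeq2 and -0.0704 under 3 Sertoli UMIs, and CYP17A1 (0.21) to -0.19 at 2 germ UMIs, -0.79 under 3 Sertoli UMIs and -1.03 without 2A, its values without 1 library running from -1.03 to 4.40. HSD17B3 lost its germ call with totals, without either library and at 2 UMIs (-0.71, adjusted p = 0.307).

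Baboon Sertoli calls (2831) became 4705 without the filter, 7140 with the block, 6978 with totals and block, 4847 with libraries and 1634 by the UMI cutoff alone, and 2558 to 2810 without a library; FDX1 (0.04) turned to -0.0477 with libraries, with values without 1 library from -0.0152 to 0.0153 (negative without 1B or baboon 2). Baboon germ calls (4) became 0 with DESeq2 size factors, totals, the UMI cutoff alone or without doublets, 1190 without the filter, 974 with the block, 375 with totals and block, 1253 with DESeq2, 884 with libraries, 3465 under 3 Sertoli UMIs and 71 to 92 without a library; members (0) became 1 with libraries and 4 under 3 Sertoli UMIs. The block changed no call beyond those given with the results. With 2 animals per species and few INSL3-high barcodes in baboon 1, differences of low genes were not detectable at this depth.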
